A study of Mus musculus with 6 samples.

Results

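The distal part of mouse chromosome 4 carries a cluster of zinc-finger genes, and this cluster and the genes around it were followed in testis RNA-seq of mice that lack Padi2 or both Padi2 and Padi4. The genes described here are those that start in the 5 Mb before 150 Mb of chromosome 4 in GRCm38 and that had 10 or more counts in at least 2 of the 6 libraries. Of the 55536 genes in the table, 176 start there, and 84 of these met the count rule. The 84 genes are 12 Zfp genes, 12 lncRNA genes and 60 other genes, which comprise 42 protein-coding genes and 18 pseudogenes. The remaining 92 genes had fewer counts, and 33 of them had 0 counts in every library.

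Most Zfp genes of such clusters encode proteins with a KRAB domain followed by an array of C2H2 zinc fingers. The fingers bind DNA, often within transposable elements, and the KRAB domain recruits the co-repressor TRIM28 and, through it, histone methyltransferases and heterochromatin proteins that silence the bound site. The genes multiply by tandem duplication, so neighbouring members of a cluster often share long stretches of sequence with each other and with pseudogenes.

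The study tested in mice for links between hormone signalling and peptidylarginine deiminases, enzymes that convert arginine in proteins to citrulline. Testes were collected at 4 months of age from WT mice of strain FVB/NJ, from Padi2 single knockout mice (P2KO) and from Padi2/Padi4 double knockout mice (DKO), with 2 libraries per genotype. The knockout lines share the FVB/NJ background of WT and were bred as homozygotes. In the P2KO allele, a gene trap with LacZ and neomycin sequences takes the place of a part of exon 1 of Padi2. The DKO line carries the same Padi2 allele together with a 4-nucleotide deletion in exon 1 of Padi4, which was made by CRISPR/Cas9 in P2KO embryos and brought to homozygosity in 1 line. Both knockout groups thus share the gene-trap allele, and each comparison with WT uses the same pair of WT libraries. Directional libraries of poly(A) RNA were sequenced, and total counts on genes ranged from 21939393 to 27306679 per library. The study took testes from 2 mice of each genotype and describes the 2 libraries as biological replicates. The p-values rest on the spread between animals of a genotype, estimated in 1 fit over all 3 genotypes with 3 residual degrees of freedom. Those of P2KO against WT thus also depend on the DKO libraries.

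The targeted genes lie nearer the centromere than the region. Padi2 (ENSMUSG00000028927, chr4:140906344-140952586) had 47 and 64 counts in WT, 100 and 55 in P2KO and 59 and 83 in DKO. The genotypes overlapped in these whole-gene counts, which therefore give no check of the genotype labels, and the cause was not tested. Padi4 (ENSMUSG00000025330, chr4:140745865-140774236) had 20 and 43 counts in WT, 11 and 10 in P2KO and 4 in each DKO library, with log2 fold changes against WT of -1.63 (adjusted p = 0.0959) and -2.94 (adjusted p = 2.78e-04). Groups are therefore named as the libraries are labelled. The tissue label was checked against cell type markers. The 10 germ cell markers, of which Prm2 was the most abundant, summed to 17053 and 17795 counts relative to library size (CPM) in WT, 15010.2 and 16235 in P2KO and 15895 and 15968 in DKO. The 4 epididymis markers summed to between 0.184 and 0.518 CPM, and Spag11b was at 0 in every library. In bulk tissue, fewer cells of a type and less RNA per cell cannot be told apart.

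Of the 84 genes, 83 had enough counts for the test across all 20744 genes, and the exception was Rex2, a zinc-finger gene with 1 and 2 counts in WT, 13 and 6 in P2KO and 10 and 8 in DKO. A gene was called where edgeR's quasi-likelihood test gave an adjusted p under 0.05. In P2KO against WT, 22 of the 83 genes were called, 11 higher and 11 lower, where 0.337% of all tested genes were called (0.198% higher and 0.14% lower). In DKO against WT, 27 were called, 14 higher and 13 lower, where 3.22% of all tested genes were called (2.06% higher and 1.16% lower). In DKO against P2KO, 2 were called, 1 in each direction, where 1.21% of all tested genes were called (0.607% higher and 0.598% lower). The 83 genes moved in both directions, so their median log2 fold change was 0.00 in P2KO and 0.04 in DKO against WT, beside 0.00 over all tested genes in each. The median of the absolute log2 fold change was 0.43 in P2KO and 0.45 in DKO, beside 0.11 and 0.13 over all tested genes. No member was at 0 counts in all libraries of a genotype except Platr16 in WT, and these medians are the same with Platr16 set at its lower bound.

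Some genes met the count rule through a part of the libraries and so had to differ. Platr16, Gm13230, Gm13165, Rex2, Zfp978 and Rbp7 reached 10 counts in knockout libraries alone, Gm26763 and Gm13238 in WT libraries alone, and Gm13233 in WT and P2KO alone. The other 75 genes reached 10 counts in a library of every genotype. Of these, 17 were called in P2KO and 22 in DKO against WT. At the edge of the rule, the second-highest count was 10 for Rex2, 11 for Gm20760 and 12 for both Platr16 and Gm13233. It was 9 for Zfp988 and 8 for Gm13228, Gm26624 and Gm20707, which fell outside.

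**Figure D1:**
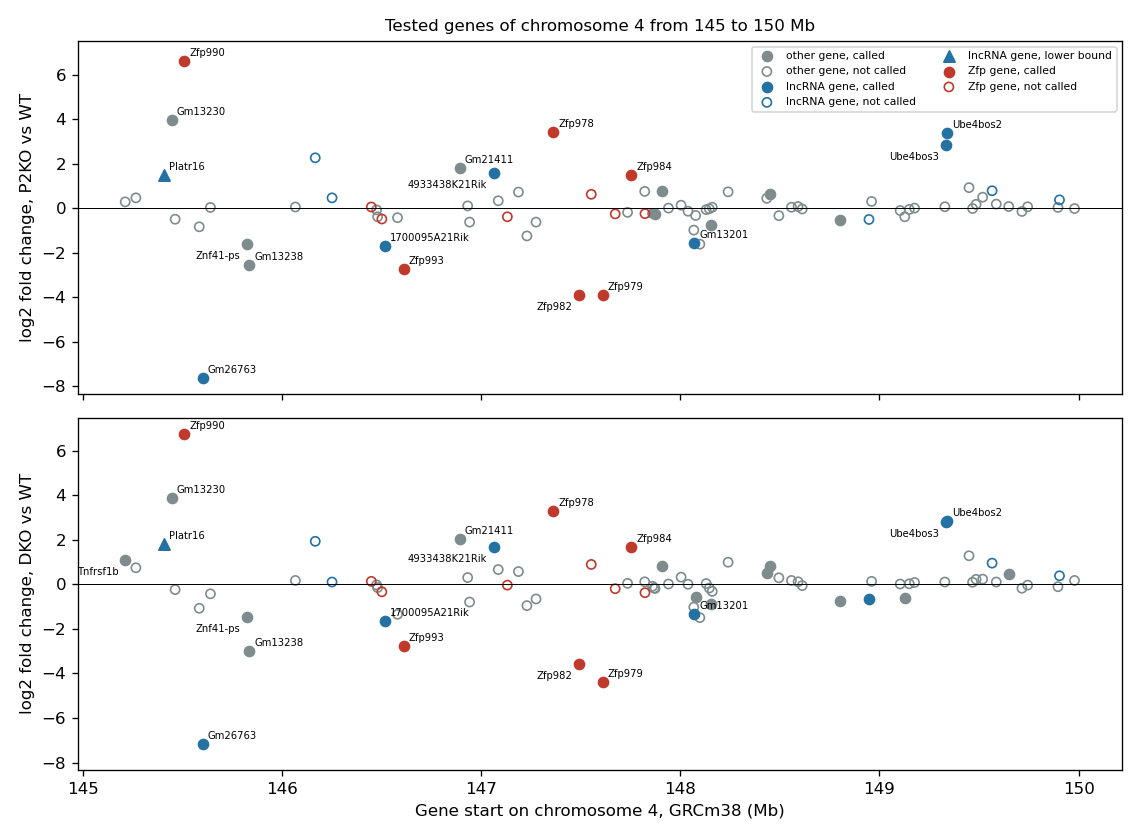
Log2 fold change of each tested gene against WT, in P2KO (top) and DKO (bottom), by the start of the gene on chromosome 4 in Mb, with called genes as filled points, others as open points and the lower bound of Platr16 as a triangle. Zfp990 lies highest at 6.60 and 6.78, Gm26763 lowest, and called genes of both directions stand beside each other; the points of Gm26763, Gm13230 and Zfp978 are fitted values that rest on 1 to 3 counts in a group.

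The 12 Zfp genes were of 3 kinds: 3 were called higher than WT in each knockout genotype, 3 were called lower in each, and 6 were called in neither. In DKO against P2KO, edgeR called 0 of the 12, 2 had an unadjusted p under 0.05, and DESeq2 called 0. Compared per length, the WT level ran from 0.065 CPM per kb of exon for Zfp978 to 6.31 for Zfp982. Zfp982 and Zfp991 (6.30) were the most abundant in WT and differed by less than their spread. In both knockout genotypes the highest level was that of Zfp990, at 19.1 CPM per kb in P2KO and 21.7 in DKO, and the lowest was that of Zfp979, at 0.198 and 0.141. The remaining 6 Zfp genes of the region, Zfp600, Zfp980, Zfp986, Zfp987, Zfp988 and Zfp989, were below the rule, with at most 12 counts in a library.

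Zfp990 (ENSMUSG00000078503, chr4:145510759-145539188, plus strand) encodes a protein with 13 C2H2 fingers in its longest reading frame. Its normalized counts were 21.4 and 13.0 in WT, 1681 and 1597 in P2KO, and 1738 and 1993 in DKO. It was near the bottom of the Zfp genes in WT and above all of them in the 4 knockout libraries, with a wide gap between WT and the rest. The mean was 17.2 ± 5.97 (SD, n = 2) in WT, 1639 ± 59.4 in P2KO and 1865 ± 181 in DKO. The log2 fold change was 6.60 in P2KO (standard error 0.148, adjusted p = 1.33e-27, edgeR) and 6.78 in DKO (standard error 0.146, adjusted p = 3.59e-28). Between DKO and P2KO the log2 difference was 0.19 (standard error 0.0755, adjusted p = 0.289).

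Zfp984 (ENSMUSG00000078495, chr4:147753974-147809788, minus strand), with 11 fingers, also rose. It had normalized counts of 56.3 and 73.1 in WT, 184 and 178 in P2KO, and 213 and 202 in DKO. WT libraries were low, knockout libraries were high, and no knockout library came near WT. Its log2 fold change was 1.47 in P2KO (standard error 0.17, adjusted p = 4.54e-07) and 1.67 in DKO (standard error 0.168, adjusted p = 7.29e-09). Zfp978 (ENSMUSG00000078497, chr4:147361303-147391004, plus strand) had 2 counts in each WT library, 27 and 21 in P2KO and 22 and 20 in DKO. It was scarcely counted in WT and low in the knockout libraries, and it met the rule through the latter. The ratio of counts was 11.4 for P2KO to WT (95% counting interval 4.18 to 43.6) and 10.4 for DKO to WT (3.77 to 39.9), and intervals of this kind cover counting error alone. It was called by edgeR in each comparison with WT (adjusted p = 9.82e-04 and 5.64e-04), whereas DESeq2 gave an adjusted p of 0.0535 in P2KO, the highest of the alternatives (from 1.81e-06), and none in DKO.

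The 3 Zfp genes that fell lie between genes that rose. Zfp979 (ENSMUSG00000066000, chr4:147611937-147642513, minus strand) had normalized counts of 304 and 298 in WT, 18.6 and 21.3 in P2KO, and 12.5 and 15.9 in DKO. Zfp982 (ENSMUSG00000078496, chr4:147492417-147513486, plus strand) had 231 and 229.6 in WT, 18.6 and 11.7 in P2KO, and 23.0 and 14.8 in DKO. Zfp993 (ENSMUSG00000063245, chr4:146610961-146658160, plus strand) had, in read counts, 129 and 121 in WT, 17 and 22 in P2KO, and 18 and 19 in DKO. In all 3 genes both WT libraries were high and the 4 knockout libraries were low, with P2KO and DKO close together. In P2KO the log2 fold change was -3.91 for Zfp979 (standard error 0.204, adjusted p = 3.08e-16), -3.89 for Zfp982 (standard error 0.236, adjusted p = 2.65e-14) and -2.75 for Zfp993 (standard error 0.262, adjusted p = 4.21e-09). In DKO it was -4.40 (standard error 0.22, adjusted p = 4.92e-17), -3.58 (standard error 0.229, adjusted p = 5.27e-14) and -2.77 (standard error 0.265, adjusted p = 2.25e-09) in the same order.

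Zfp991, Zfp992, Zfp981, Zfp933, Zfp534 and Zfp985 were not called in any comparison. Zfp992, with 11 fingers, had normalized counts of 457 and 592 in WT, 507 and 587 in P2KO, and 571 and 594 in DKO, and the 3 genotypes overlapped. Zfp991, also with 11 fingers, had 433 and 469 in WT, 362 and 324 in P2KO, and 426 and 460.1 in DKO. Both of its P2KO libraries lay below the other 4, and P2KO differed from WT by -0.39 in log2 (standard error 0.105, adjusted p = 0.114) and DKO from P2KO by 0.37 (standard error 0.106, adjusted p = 0.0856). Zfp981 had 287 and 337 in WT, 228 and 216 in P2KO, and 246 and 253 in DKO. Its knockout libraries lay below WT, with log2 fold changes of -0.49 (adjusted p = 0.0731) and -0.33 (adjusted p = 0.164). Without WT replicate 1, Zfp981 and Zfp991 were called lower in P2KO, at log2 fold changes of -0.60 (adjusted p = 0.00958) and -0.45 (adjusted p = 0.0361), and the alternatives ranged from 0.00958 to 0.677 and from 0.0361 to 0.744. With no filter, Zfp981 was called in P2KO as well (adjusted p = 0.0388). Zfp991 was called higher in DKO than in P2KO without WT replicate 1 or 2 (adjusted p = 0.0323 and 0.0327) and in the fit of the 2 genotypes alone (0.0426), in a range from 0.0323 to 0.507. Zfp933 and Zfp534 had log2 fold changes between -0.37 and -0.19 against WT. Zfp985 had between 10 and 24 counts in a library, and its log2 fold changes were 0.62 (standard error 0.461) and 0.90 (standard error 0.448), so that a change of this size was not detectable at this depth.

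**Figure D2:**
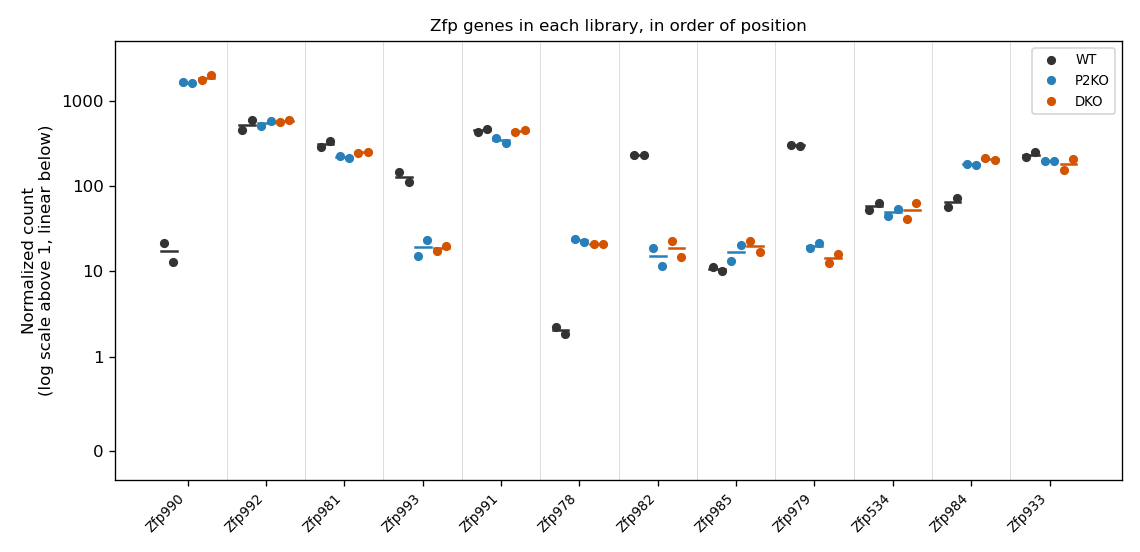
Normalized counts of the 12 Zfp genes in each library (points, 2 per genotype) with the mean of each genotype (bars), on an axis that is logarithmic above 1. Zfp990, Zfp978 and Zfp984 are higher in the 4 knockout libraries than in WT, and Zfp993, Zfp982 and Zfp979 are lower.

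Sequence is shared widely among these genes. A near-identical copy was defined by an alignment of 150 nucleotides or more with 95% identity that takes in 50% of whichever transcript is shorter. One was found for 43 of the 84 genes and for 11 of the 12 Zfp genes, Zfp982 being the exception. These 43 include Pex14, Ctnnbip1, Gm13066, Platr16 and Gm13230. Their only match shares exons with them at the same place and is no separate copy. The only match of Zfp933, with 4270 exon bases, is 163 nucleotides of Gm22993 on chromosome 11. That of Nmnat1, with 3037, is 166 nucleotides of Gm47551 on chromosome 13. These 2 matches meet the definition through the shorter transcript and are no copies of the whole gene. STAR counts a read where it aligns to 1 place, so reads from stretches without a difference enter no count. The values of genes with a copy elsewhere are uncertain to that degree. The build is that of strain C57BL/6J, and how reads of FVB/NJ copies were placed was not tested. Of the 41 tested genes without a copy, 10 were called in P2KO and 15 in DKO against WT. Of the 42 with a copy by this definition, 12 were called in each. Among all tested genes the shares called were 0.337% in P2KO and 3.22% in DKO. The 42 include Platr16 and Gm13230, called in each, and Pex14, Ctnnbip1, Gm13066, Zfp933 and Nmnat1, called in neither.

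Copies of this kind differed in what they did. Zfp979, which fell, is 99.3% identical to Zfp978, which rose, over 574 transcript nucleotides. Zfp993, which fell, is 99.7% identical over 1019 nucleotides to Zfp991, which was not called. These stretches are parts of the genes, whose exons span 4111 bases in Zfp979, 1287 in Zfp978, 1275 in Zfp993 and 2917 in Zfp991. Windows of 60 bases that hold a difference are given to show how few bases differ within the aligned stretches. They do not show how far the genes differ outside these stretches. Capitals mark the bases at which the members of a pair differ. All 4 windows are coding sequence in GENCODE. That of Zfp979 is chr4:147615347-147615406 in exon 4 (GRCm38, minus strand), and that of Zfp978 is chr4:147388322-147388381 in exon 4 (plus strand). That of Zfp993 is chr4:146657508-146657567 in exon 6, and that of Zfp991 is chr4:147178455-147178514 in exon 7 (both plus strand).
Zfp979: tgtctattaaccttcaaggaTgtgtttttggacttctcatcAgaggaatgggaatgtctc
Zfp978: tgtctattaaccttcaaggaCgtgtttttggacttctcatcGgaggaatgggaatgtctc
Zfp993: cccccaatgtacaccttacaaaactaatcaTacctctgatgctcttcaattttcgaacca
Zfp991: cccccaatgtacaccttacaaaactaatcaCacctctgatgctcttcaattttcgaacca

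Summed over such a family, counts do not depend on which of its listed copies a read was given to. They still leave out reads that align to more than 1 place, and they still depend on copies that are not listed. Gm13166, for example, is 100% identical to Zfp993 over 244 nucleotides and is not in the sums. Zfp978, Zfp979, Zfp600, Zfp980 and Rex2 summed to normalized counts of 317 and 307 in WT, 63.9 and 57.5 in P2KO, and 51.7 and 64.7 in DKO. Zfp991, Zfp992, Zfp993 and the pseudogene Znf41-ps summed to 1684 and 1738 in WT, 1075 and 1134 in P2KO, and 1217 and 1306 in DKO. Zfp984, Zfp985 and the zinc-finger gene Gm13212, which has 20 fingers, summed to 91.2 and 116.6 in WT, 211 and 217 in P2KO, and 246 and 236 in DKO. The first 2 families were lower and the last was higher in each knockout library than in both WT libraries. All 12 Zfp genes together came to a mean of 2334 in WT, 3272 in P2KO and 3674 in DKO, and without Zfp990 to 2317, 1633 and 1809.

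Promoters were compared because 3 Zfp genes were called higher and 3 lower in each comparison with WT. RefSeq promoters (GRCm38.p6, 250 bases before to 50 after the start) were matched by symbol for 52 of the 84 genes. Those of Zfp979 and Zfp982, which fell, and of Zfp984, which rose, are shown. The promoter of Zfp979 is chr4:147642459-147642758 (minus strand), that of Zfp982 is chr4:147492167-147492466 (plus strand), and that of Zfp984 is chr4:147809739-147810038 (minus strand). Capitals mark CCAAT and GGGCGG on either strand. The motifs TATAAA and TGACGTCA were searched as well and were not in these windows.
Zfp979: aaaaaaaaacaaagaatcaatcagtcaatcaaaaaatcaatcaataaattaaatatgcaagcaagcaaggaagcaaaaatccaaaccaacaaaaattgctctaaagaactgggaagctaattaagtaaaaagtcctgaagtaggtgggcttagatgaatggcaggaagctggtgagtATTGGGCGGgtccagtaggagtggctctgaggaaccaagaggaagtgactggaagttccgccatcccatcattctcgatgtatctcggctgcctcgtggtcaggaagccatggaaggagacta
Zfp982: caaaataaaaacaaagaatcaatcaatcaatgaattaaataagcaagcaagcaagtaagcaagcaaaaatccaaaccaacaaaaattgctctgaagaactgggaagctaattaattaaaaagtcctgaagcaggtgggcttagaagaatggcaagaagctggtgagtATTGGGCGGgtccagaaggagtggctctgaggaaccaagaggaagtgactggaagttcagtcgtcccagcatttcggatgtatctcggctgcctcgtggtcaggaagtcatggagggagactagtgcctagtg
Zfp984: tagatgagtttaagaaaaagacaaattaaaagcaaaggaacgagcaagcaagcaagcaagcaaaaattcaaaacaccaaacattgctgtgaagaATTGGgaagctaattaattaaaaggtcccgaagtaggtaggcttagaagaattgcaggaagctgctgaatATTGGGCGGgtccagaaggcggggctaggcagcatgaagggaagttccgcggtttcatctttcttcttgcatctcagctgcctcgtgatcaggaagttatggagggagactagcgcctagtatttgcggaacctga

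The promoters of Zfp979 and Zfp982 are 84.6% identical, and that of Zfp984 is 68.2% and 72.0% identical to them. All 3 hold ATTGGGCGG, in which ATTGG, the motif CCAAT read on the other strand, and GGGCGG overlap by 2 bases. Alone, CCAAT is in 37.4% and GGGCGG in 35.7% of the 32851 RefSeq promoters, TATAAA in 13.6% and TGACGTCA in 1.8%. ATTGGGCGG, which was picked after these promoters had been read, is on either strand of 5 of the 8 promoters of Zfp genes that met the rule, namely those of Zfp979, Zfp981, Zfp982, Zfp984 and Zfp985. It is also in those of Zfp600, Zfp980 and Zfp988, of 4 further Zfp genes of the region, and in those of Gm13212 and Rex2 among 44 other genes that met the rule. ATTGGGCGG is missing from the promoters of Zfp993, which fell, and of Zfp534 and Zfp933, which were not called. Of 393 Zfp promoters outside the region 1.27% hold it, and of all promoters 0.26%. The same letters thus stand before Zfp984, which rose, before Zfp979 and Zfp982, which fell, and before genes that were not called. Zfp990 and Zfp978, which also rose, are not among the 8 Zfp genes with a matched promoter. Promoters of rising and falling genes can therefore not be compared as groups here.

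Of the 12 lncRNA genes, 7 were called in P2KO (4 higher and 3 lower) and 8 in DKO (4 higher and 4 lower), against WT. Over all tested genes, 0.337% and 3.22% were called in these comparisons. In DKO against P2KO, edgeR called 0 of them, 1 had an unadjusted p under 0.05, and DESeq2 called 0. Their median log2 fold change was 0.62 in P2KO and 0.67 in DKO, also with Platr16 at its bound. Several overlap a gene on the other strand. The deposited counts keep strands apart: among genes of 200 or more exon bases that lie wholly inside the exons of an expressed gene on the other strand, 25 of 149 had a mean of 10 or more counts, where a count without strand leaves such reads out.

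Among lncRNA genes the largest fall was that of Gm26763 (ENSMUSG00000097661, chr4:145601963-145711968, minus strand), a lincRNA gene whose span covers Zfp980 and overlaps a part of Gm13212, both on the other strand, without sharing exons with them. It had 305 and 300 counts in WT, 2 and 1 in P2KO, and 1 and 3 in DKO. It was well expressed in both WT libraries and nearly absent from all 4 knockout libraries. The ratio of counts, WT to knockout, was 212 for P2KO (95% counting interval 72.1 to 1029.9) and 153 for DKO (59.3 to 562), with adjusted p = 5.78e-18 and 4.29e-18. Gm26763 met the rule through the WT libraries, and a stretch of 252 nucleotides is 96.0% identical to Gm13165.

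1700095A21Rik (ENSMUSG00000086046, chr4:146519039-146546873), an antisense gene whose span overlaps Zfp981, had normalized counts of 588 and 672 in WT, 191 and 194 in P2KO, and 206 and 195 in DKO. Gm13201 (ENSMUSG00000078494, chr4:148071392-148075420), classed as antisense, had 393 and 345 in WT, 130.4 and 114 in P2KO, and 142 and 149 in DKO. Both genes were high in WT and low in the 4 knockout libraries, which lay close together. The log2 fold changes in P2KO and DKO were -1.72 and -1.65 for 1700095A21Rik (standard error 0.113 in each, adjusted p = 2.78e-13 and 3.36e-13) and -1.59 and -1.34 for Gm13201 (standard errors 0.137 and 0.134, adjusted p = 3.02e-10 and 6.52e-09). Gm13205, which lies within Casz1 on the other strand, had 124 and 175 in WT, 114 and 96.9 in P2KO, and 91.0 and 101 in DKO. Its log2 fold change of -0.65 in DKO was called (standard error 0.18, adjusted p = 0.0326), and -0.51 in P2KO was not (adjusted p = 0.327). DESeq2 (adjusted p = 0.215), the replicate block (0.0672), the omission of WT replicate 2 (0.645) and the omission of either DKO library (0.286 and 0.167) ended this call (range of the alternatives 0.00145 to 0.645), and without WT replicate 1 the P2KO value was called at -0.72 (adjusted p = 0.0314, range 0.0314 to 1.0).

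Ube4bos3 (ENSMUSG00000085286, chr4:149334639-149335897) and Ube4bos2 (ENSMUSG00000085807, chr4:149338087-149338531) are antisense genes inside Ube4b, which encodes a ubiquitin chain elongation factor. Ube4bos3 had normalized counts of 57.5 and 59.2 in WT, 419 and 421 in P2KO, and 421 and 407 in DKO. Ube4bos2 had 12.4 and 5.55 in WT, 100.2 and 83.0 in P2KO, and 58.4 and 68.9 in DKO. Both antisense genes were low in WT and high in every knockout library. The log2 fold change of Ube4bos3 was 2.84 in P2KO and 2.82 in DKO (standard error 0.142 in each, adjusted p = 8.86e-17 and 5.41e-17), and that of Ube4bos2 was 3.39 and 2.86 (standard errors 0.322 and 0.343, adjusted p = 3.84e-09 and 4.13e-07). Ube4b itself had log2 fold changes of 0.06 (adjusted p = 0.907) and 0.11 (adjusted p = 0.607), so the sense gene was not called while its antisense partners were.

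4933438K21Rik (ENSMUSG00000093617, chr4:147063366-147068436) had normalized counts of 351 and 330.5 in WT, 1118 and 887 in P2KO, and 993 and 1187 in DKO. All knockout libraries lay above both WT libraries, with log2 fold changes of 1.56 and 1.68 (standard error 0.104 in each, adjusted p = 3.58e-13 and 2.41e-14). Per length it was the most abundant lncRNA gene of the region in the knockout genotypes, at 24.1 and 26.2 CPM per kb. In P2KO it differed from Ube4bos3 (22.6) by less than the spread of its libraries. In WT the most abundant was 1700095A21Rik, at 24.0. Platr16, which shares exons with the pseudogene Gm13230 on the same strand, had 0 counts in both WT libraries, 12 and 8 in P2KO, and 15 and 9 in DKO. It met the rule through the knockout libraries and so had to differ. Against a floor of 3 counts in a library, it was at least 2.83-fold higher in P2KO and at least 3.54-fold higher in DKO (adjusted p = 0.0228 and 0.00149). DESeq2 did not call Platr16 in P2KO (adjusted p = 0.203) and gave no adjusted p in DKO, and its call in P2KO was also lost without either P2KO library, either DKO library or WT replicate 2 (adjusted p from 0.0534 to 0.214), with the 2 genotypes compared alone (0.0669) and with the replicate block (0.0745; range of the alternatives 0.00237 to 0.214). Gm13165, Gm13166, Gm13066 and Gm13070 were not called, and their log2 fold changes against WT ran from 0.11 to 2.26.

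**Figure D3:**
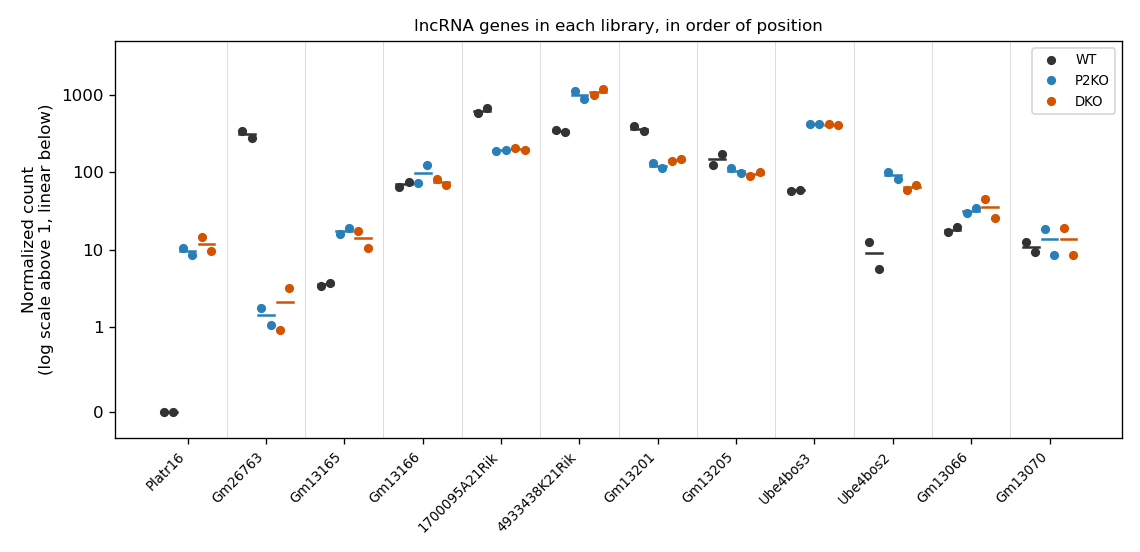
Normalized counts of the 12 lncRNA genes in each library (points, 2 per genotype) with the mean of each genotype (bars), on an axis that is logarithmic above 1 and linear below. Gm26763, 1700095A21Rik and Gm13201 are lower in all knockout libraries than in WT, and 4933438K21Rik, Ube4bos3 and Ube4bos2 are higher.

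Among the 59 other genes tested, 9 were called in P2KO (4 higher and 5 lower) and 13 in DKO (7 higher and 6 lower). Of the 18 pseudogenes, 3 were called in each comparison with WT, 1 higher and 2 lower. The shares over all tested genes were 0.337% in P2KO and 3.22% in DKO. Znf41-ps (chr4:145825237-145829942), an unprocessed pseudogene that is 99.5% identical to Zfp991 over 2410 nucleotides, had normalized counts of 649 and 566 in WT, 191 and 200.1 in P2KO, and 203 and 232 in DKO. It was high in WT and low in the knockout libraries, while Zfp991 was not called. Its log2 fold change was -1.63 in P2KO and -1.48 in DKO (standard errors 0.115 and 0.114, adjusted p = 1.5e-12 and 9.52e-12). Gm13230 had 2 counts in each WT library, 36 and 34 in P2KO, and 30 and 33 in DKO. Its ratio of counts to WT was 16.7 in P2KO (95% counting interval 6.23 to 62.9) and 15.6 in DKO (5.80 to 59.0). Gm13238, a processed pseudogene related to Cdv3, had 29 and 28 counts in WT, 5 in each P2KO library, and 4 and 3 in DKO. Gm13230 was called higher (adjusted p = 1.65e-05 and 1.11e-05) and Gm13238 lower (adjusted p = 0.00507 and 3.3e-04) in P2KO and DKO. Gm13230 met the count rule through knockout libraries alone and Gm13238 through WT libraries alone, so both had to differ in these directions. Znf41-ps reached 10 counts in every genotype. The call of Gm13238 in P2KO was lost without either P2KO library (adjusted p = 0.142 and 0.0724) and by DESeq2 (0.186), in a range from 6.09e-05 to 0.186. The Smarca5-like processed pseudogenes of the region, Smarca5-ps, Gm13034, Gm13140, Gm13135, Gm13136 and Gm13231, were not called.

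Of the 41 protein-coding genes tested that are not Zfp genes, 6 were called in P2KO (3 higher and 3 lower) and 10 in DKO (6 higher and 4 lower). Beside these stand 0.337% and 3.22% of all tested genes. Gm21411, a short coding gene model that shares sequence with Zfp990, Zfp534 and 8 further genes of the region, had normalized counts of 11.3 and 13.9 in WT, 47.9 and 40.5 in P2KO, and 55.6 and 48.8 in DKO. It was low in WT and higher in every knockout library, with log2 fold changes of 1.80 and 2.03 (standard errors 0.334 and 0.327, adjusted p = 0.00292 and 8.08e-05). DESeq2 (adjusted p = 0.0555) and the omission of P2KO replicate 1 (0.107) ended the call in P2KO, in a range from 2.14e-05 to 0.107.

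Mtor encodes the kinase at the centre of the nutrient and growth factor signalling complexes named after it. It had normalized counts of 6916 and 5543 in WT, 9186 and 10420.1 in P2KO, and 10707 and 11076 in DKO. The 4 knockout libraries lay above both WT libraries. The log2 fold change was 0.65 in P2KO (standard error 0.0711, adjusted p = 1.06e-07) and 0.81 in DKO (standard error 0.0711, adjusted p = 2.89e-10). Plod1, a lysyl hydroxylase that modifies collagen, had 219.7 and 201 in WT, 357 and 367 in P2KO, and 394 and 358 in DKO. It rose in each, with log2 fold changes of 0.79 and 0.84 (standard error 0.117 in each, adjusted p = 8.33e-05 and 8.43e-06).

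Fbxo44 and Fbxo2 encode F-box proteins, the substrate-binding subunits of SCF ubiquitin ligases, and lie next to each other on opposite strands with Fbxo6 nearby. Fbxo44 had normalized counts of 2553 and 2558 in WT, 1506 and 1471 in P2KO, and 1394 and 1405 in DKO. It fell in each knockout genotype, with replicates that hardly differed and log2 fold changes of -0.78 and -0.87 (standard errors 0.0657 and 0.0661, adjusted p = 2e-10 and 6.73e-12). Fbxo2 had 712 and 623 in WT, 680.3 and 685 in P2KO, and 521 and 552 in DKO. The difference of DKO from P2KO was called, at -0.35 in log2 (standard error 0.0907, adjusted p = 0.0448), a call that DESeq2 (adjusted p = 0.141) and the replicate block (0.0845) did not make and that was lost without any 1 of the P2KO and DKO libraries (from 0.214 to 0.336; range of the alternatives 0.0101 to 0.336). Against WT, DKO stood at -0.31 (adjusted p = 0.0509), at the edge of a call. It was called without WT replicate 2 (-0.41, adjusted p = 0.0161) and, on all 6 libraries, with RLE scaling (0.049), upper-quartile scaling (0.0279), scaling without chromosome 4 (0.0461), no filter (0.0466) or a mean of 50 counts (0.0375), in a range from 0.0161 to 0.332. Fbxo6 was not called, at -0.03 and -0.16 against WT.

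Casz1, a zinc-finger transcription factor gene, had normalized counts of 401 and 318 in WT, 259 and 237 in P2KO, and 214 and 219 in DKO. WT libraries were above all knockout libraries, and the log2 fold change was -0.53 in P2KO (standard error 0.123, adjusted p = 0.0435) and -0.73 in DKO (standard error 0.126, adjusted p = 2.52e-04). Mfn2, a GTPase of mitochondrial fusion and per length the most abundant of the 84 genes (64.7 CPM per kb in WT, 53.5 in P2KO and 57.1 in DKO), had 8806 and 7685 in WT, 6546 and 7090.1 in P2KO, and 7166 and 7382 in DKO. In P2KO and DKO, Mad2l2 (52.6 and 56.8 CPM per kb) differed from Mfn2 by less than their spread. Mfn2 was called lower in P2KO at -0.27 (standard error 0.0622, adjusted p = 0.0328) and was not called in DKO at -0.18 (adjusted p = 0.121). DESeq2 called neither Casz1 (adjusted p = 0.316) nor Mfn2 (0.0581) in P2KO, and both calls were lost without any 1 library other than WT replicate 2, at adjusted p from 0.0898 to 0.471 for Casz1 and from 0.0778 to 0.39 for Mfn2 (ranges of the alternatives 0.00246 to 0.471 and 1.53e-05 to 0.39). They were also lost with the 2 genotypes compared alone (0.095 and 0.0968) and with the replicate block (0.085 and 0.108), and that of Casz1 at a mean of 50 counts (0.0607). In DKO, Mfn2 was called without WT replicate 2 (-0.28, adjusted p = 0.00179) and, on all 6 libraries, with upper-quartile scaling (0.0492) and with no filter (0.0466), in a range from 0.00179 to 0.61.

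Pik3cd, Tnfrsf1b, Agtrap and Cenps were called in DKO against WT and not in P2KO, and the difference between the knockout genotypes was called for Pik3cd alone among them. Pik3cd, a catalytic subunit of phosphoinositide kinases found mostly in leukocytes, had normalized counts of 1490.4 and 1366 in WT, 1479 and 1507 in P2KO, and 1962 and 1927 in DKO. The DKO libraries stood above the other 4, by 0.45 in log2 against WT (standard error 0.0689, adjusted p = 4.39e-05) and by 0.38 against P2KO (standard error 0.0685, adjusted p = 9.24e-04; 0.0501 without DKO replicate 1, range 5.56e-06 to 0.0501). Tnfrsf1b, a receptor of tumour necrosis factor, had 28.2 and 38.0 in WT, 28.4 and 54.3 in P2KO, and 74.7 and 68.9 in DKO. Its log2 fold change against WT was 1.10 in DKO (standard error 0.274, adjusted p = 0.0144) and 0.28 in P2KO (adjusted p = 0.862), and against P2KO it was 0.82 (adjusted p = 0.134; called without WT replicate 1 or 2, at 0.0479 and 0.0481, range 0.0479 to 0.746). Agtrap, which binds an angiotensin receptor, had 1070 and 1117 counts in WT, 1025 and 820 in P2KO, and 808 and 699 in DKO. Cenps, a centromere protein gene, had 204 and 268 in WT, 227 and 152 in P2KO, and 170 and 140 in DKO. In DKO Agtrap fell by 0.56 in log2 (adjusted p = 2.09e-05) and Cenps fell by 0.62 (adjusted p = 0.00748). In P2KO Agtrap stood at -0.33 (adjusted p = 0.0752). It was called there without WT replicate 2 (-0.43, adjusted p = 0.00291), with upper-quartile scaling (-0.34, adjusted p = 0.0411) and with no filter (-0.33, adjusted p = 0.0275), in a range from 0.00291 to 0.533. The DKO calls of Tnfrsf1b and Cenps depended on single libraries. Without DKO replicate 1 the adjusted p was 0.17 for Tnfrsf1b and 0.0535 for Cenps. Without DKO replicate 2 it was 0.106 for Tnfrsf1b and 0.169 for Cenps, without WT replicate 1 it was 0.0676 for Tnfrsf1b, and without WT replicate 2 it was 0.0861 for Cenps. DESeq2 called neither Tnfrsf1b (0.129) nor Cenps (0.0564). Over the alternatives adjusted p ran from 9.92e-04 to 0.17 for Tnfrsf1b and from 0.00216 to 0.169 for Cenps. The 50 other genes not called in P2KO had log2 fold changes from -1.62 (Draxin) to 0.92 (Rbp7), and the 46 not called in DKO from -1.49 (Draxin) to 1.29 (Rbp7).

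Cell type markers were read beside these calls. In DKO against WT, 5 of 6 Leydig cell markers were called, 4 higher and 1 lower (1 by DESeq2), and 0 were called in P2KO by edgeR (4 at an unadjusted p under 0.05, 0 by DESeq2). Between DKO and P2KO, where Pik3cd and Fbxo2 were called, 1 Leydig marker was called higher by edgeR, Hsd3b6 (log2 fold change 0.63, adjusted p = 2.93e-07), with 4 at an unadjusted p under 0.05 and 1 called by DESeq2. The 6 markers, none of them at 0 and with Cyp17a1 the most abundant, summed to 718 and 703 CPM in WT, 810.5 and 724 in P2KO, and 936 and 772 in DKO. Of the 10 germ cell markers, Tnp2 was lower in P2KO and Tnp1 and Prm1 in DKO, at log2 fold changes of -0.29, -0.25 and -0.22; DESeq2 called 1 in P2KO and 0 in DKO. The 6 Sertoli cell markers summed to between 762 and 882 CPM, and edgeR called 0 of them against WT, with 0 at an unadjusted p under 0.05 and 0 by DESeq2. The 4 macrophage markers summed to between 12.9 and 17.6 CPM, the 3 endothelial markers to between 7.67 and 10.3, the 3 peritubular markers to between 44.1 and 59.2 and the 4 adipose markers, of which 2 had enough counts for the test, to between 9.94 and 11.6. Of the tested markers of these lists, edgeR and DESeq2 called 0 in any comparison. At an unadjusted p under 0.05 there were at most 2 tested markers of such a list in a comparison. Their part in the values of the region was not tested.

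Calls were counted along the chromosome. Taken 1 Mb at a time from the first to the last Mb of the region, the tested genes called in P2KO against WT were 6 of 11, 3 of 13, 7 of 20, 4 of 20 and 2 of 19. In DKO against WT they were 7, 3, 6, 7 and 4 of the same numbers. All tested genes were called at shares of 0.337% and 3.22% in these comparisons. In the 5 Mb from 140 Mb to the region, where Padi2 and Padi4 lie, 1 of 52 tested genes was called in P2KO and 11 in DKO. In the 5 Mb before 140 Mb it was 13 and 30 of 80. From 150 Mb to the end of the chromosome edgeR called 0 of 106 in either comparison, where 5 and 12 had an unadjusted p under 0.05 and DESeq2 called 0. Across all tested genes of chromosome 4 outside the region, 15 and 107 of 1144 were called.

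Zfp genes elsewhere were described in the same way. Of 362 tested Zfp genes outside the region, edgeR called 0 in P2KO against WT, 27 had an unadjusted p under 0.05, and DESeq2 called 0. In DKO against WT 8 were called, 5 higher and 3 lower, and in DKO against P2KO 4. These are 2.21% and 1.1% of the 362 genes, below the 3.22% and 1.21% of all tested genes. Their median absolute log2 fold change was 0.10 in P2KO and 0.12 in DKO, beside 1.05 and 1.28 for the 12 Zfp genes of the region, of which 1 had to differ to meet the count rule. On chromosome 4 outside the region, 0 of 10 Zfp genes were called by edgeR in P2KO (2 at an unadjusted p under 0.05, 0 by DESeq2) and 2 in DKO.

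Transcripts of the co-repressors through which KRAB zinc-finger proteins act were read as well. Of 26 listed co-repressor and DNA methylation genes, 25 were found under their names and tested. Trim28, the co-repressor bound by the KRAB domain, had 11029 and 12804 counts in WT, 13512 and 10816 in P2KO, and 13752 and 11279 in DKO. Setdb1, the histone methyltransferase that TRIM28 recruits, had 1609 and 1911 in WT, 1947 and 1694 in P2KO, and 2020 and 1745 in DKO. Neither gene was called, and their log2 fold changes against WT lay between -0.05 and 0.08. In DKO against P2KO the value was 0.1 for each gene. In P2KO against WT, DKO against WT and DKO against P2KO, edgeR called 0 of the 25, with 1, 3 and 4 at an unadjusted p under 0.05, and DESeq2 called 0 in each. The log2 fold changes against WT ran from -0.10 to 0.20 in P2KO and from -0.35 (Dnmt3l) to 0.22 (Dnmt1) in DKO.

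Genes off the region with a pattern most like that of 2 Zfp genes were listed as a description. Across log2 CPM of the 6 libraries, which share their depth with every gene and fall into a WT and a knockout level, Pearson's correlation with Zfp990 was highest for Ubxn10 (0.9993), Mrto4 (0.9985), Anxa3 (0.993), Fosl2 (0.993) and Gm16505 (0.993). Mrto4, a ribosome assembly factor gene that starts at 139347435, had 618 and 690 counts in WT, 2286 and 1770 in P2KO, and 2040 and 1817 in DKO. Ubxn10, which starts at 138709837, had 4640 and 5326 in WT, 10028 and 8441 in P2KO, and 9623 and 8582 in DKO. Both genes lie before the region and were higher in all knockout libraries, with log2 fold changes of 1.55 and 1.54 for Mrto4 and 0.82 and 0.85 for Ubxn10. Gm16505, on chromosome 13, was also called in each comparison with WT, at 2.36 (adjusted p = 0.0286) and 2.41 (adjusted p = 0.00441). Anxa3 and Fosl2, both on chromosome 5, were not called. The pattern of Zfp979 was most like those of 4930455B14Rik (0.998), Gm20559 (0.994), Gm6746 (0.985), Gm6664 (0.984) and Cenpm (0.983). Of these, Gm20559 was called; this gene of chromosome 6 had read counts of 106 and 116 in WT, 43 and 40 in P2KO, and 39 and 33 in DKO (log2 fold changes of -1.49 and -1.64).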

How the data were processed

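Testis RNA of 3 genotypes was sequenced by the study, and 6 libraries were analysed. The authors trimmed reads with Trim Galore, aligned them to GRCm38 with STAR under an Ensembl annotation and deposited the raw count of reads per gene from STAR, with no normalization or filter; versions, and which of STAR's strand columns was taken, are not given in the sources used here. Positions, exon lengths and overlaps come from GENCODE mouse release 21. Here the deposited counts were fitted in R 4.3.3 with edgeR 4.0.16: filterByExpr (minimum count 10) left 20744 genes, libraries were scaled by TMM, and glmQLFit and glmQLFTest were run on all 6 libraries with a term for genotype, with Benjamini-Hochberg adjustment over all 20744 genes. The fit was tested on simulated data. The standard error is the absolute log2 fold change divided by the square root of F. For normalized counts, each library's scaled size was divided by the geometric mean over libraries, and counts were divided by the result. CPM per kb divides by exon length, and counting intervals are exact binomial intervals of summed counts. Copies were found with BLAST 2.17.0, and fingers are matches to the C2H2 pattern in the longest reading frame of a transcript. Promoters are from RefSeq.

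Named genes are every Zfp gene that met the rule, every lncRNA gene called in at least 1 comparison, up to 15 other called genes ranked by the larger absolute log2 fold change against WT, and the 5 genes off the region most like Zfp990 and Zfp979. Further genes were named after their values were seen. Members and lists were chosen with earlier results of these data known, and no list was tested as a set. Alternatives were RLE and upper-quartile scaling, scaling without chromosome 4, a prior count of 2, no filter on low counts or one at a mean of 50, DESeq2 1.42.0, the 2 genotypes compared alone, a replicate block, and the omission of each library.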

Additional observations from a re-analysis of the deposited data

How the results depend on the processing

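Counts of called genes were within 1.5 times those reported under RLE scaling, upper-quartile scaling, scaling without chromosome 4, no filter on low counts and a prior count of 2. With a mean of at least 50 counts, 57 members were tested and those called higher than WT fell to 7 in P2KO and 9 in DKO. In DKO against P2KO, DESeq2 called 1 member, with 0 lower, and the fit of the 2 genotypes alone called 2 higher. DESeq2 called 16 members in P2KO and 21 in DKO against WT, and gave no adjusted p for 14 members in DKO against WT and 30 in DKO against P2KO. Leaving out 1 library at a time gave between 17 and 24 called members in P2KO against WT and between 23 and 28 in DKO against WT. In DKO against P2KO it gave 0 to 4, with 0 to 3 higher and 0 to 1 lower: 0 were called without DKO replicate 1 and 1 without any other knockout library, while 4 were called without either WT library, Tnfrsf1b and Zfp991 among them.

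Libraries of different genotypes share only a replicate number, and deviations of same-numbered libraries correlated by -0.06, 0.06 and -0.05 in the 3 pairs of genotypes. With the replicate number as a block, 19 members were called in P2KO, 26 in DKO against WT and 1 in DKO against P2KO, with 0 lower.

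No called log2 fold change of a named gene turned its sign. Some values that were not called did so when 1 library was left out, and the cause was not tested. Over the fits without 1 library, the values against WT ran from -0.12 to 0.25 for Zfp992 in P2KO (-0.06 without P2KO replicate 2) and from -0.02 to 0.35 in DKO, from -0.08 to 0.03 for Zfp991 in DKO (0.02 without DKO replicate 1), from -0.51 to 0.09 for Zfp534 in DKO, from -0.24 to 0.69 for Tnfrsf1b in P2KO and from -0.06 to 0.13 for Fbxo2 in P2KO. In DKO against P2KO they ran from -0.01 to 0.21 for Zfp992, -0.33 to 0.31 for Zfp993, -0.06 to 0.70 for Zfp982, -0.01 to 0.60 for Zfp985, -0.24 to 0.35 for Zfp534, -0.33 to 0.08 for Zfp933, -0.02 to 0.57 for Platr16, -0.03 to 0.30 for 4933438K21Rik, -0.05 to 0.01 for Ube4bos3, -0.23 to 0.04 for Gm13230 and -0.02 to 0.13 for Plod1. With 2 libraries per genotype, a leave-one-out fit assumes that the lone library varies like the other genotypes. Depth limits genes under about 10 counts.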
